A study of Homo sapiens with 4 samples.

Results

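The wide distal H3K27Ac domains that were still called in MOLM13 cells after exposure to the Menin inhibitor SNDX-50469 were collected. A domain was a row of the SNDX-50469 peak list that was at least 2000 bp wide, lay on an autosome other than 8, and was more than 2.5 kb from the 5′ end of every protein-coding gene in hg38. This rule kept 1054 of the 54061 peaks in that list, or 3.39% of the 31111 peaks on the same chromosomes, and these held 21.5% of the peak length there. MOLM13 is an established AML cell line with MLL1 rearrangement (MLL1-r), in which MLL1 is fused to AF9. In 1 library the cells had been exposed to SNDX-50469 at 500 nM over 16 h, and 1 control library came from cells without inhibitor, for which the sample label gives no treatment and the protocol names a DMSO arm. H3K27Ac occupancy was measured by ChIPmentation, an immunoprecipitation in which the Tn5 transposase adds the sequencing adapters. With 1 library per condition and a single cell line there is no replicate error, no test between conditions was made, and the 95% Wilson intervals below cover counting error only.

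Acetylation of lysine 27 on histone H3 marks active promoters and active enhancers, and long acetylated stretches are typical of enhancer clusters near genes that define a cell's identity. Menin tethers MLL1 and its fusion proteins to chromatin, and Menin inhibitors displace them from there. In MLL1-r AML the fusion is known to maintain genes such as MEIS1, PBX3, MEF2C and CDK6, while PU.1 (SPI1), C/EBPα (CEBPA), RUNX1, MYB and IRF8 are transcription factors of the myeloid lineage.

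Among markers of cell type, all 9 AML or myeloid genes examined had an H3K27Ac peak within 2.5 kb of their 5′ end in control, and 7 of 9 had one with SNDX-50469, the exceptions being CD33 and LYZ. Among markers of other cell types, CD3E and GATA1 had a control peak there and no SNDX-50469 peak, while PAX5, HBB, ALB, EPCAM, NEUROD1 and MYOD1 had neither. The control list held 245875 peaks. The lists hold no read totals, so the depth behind each peak is unknown. The weakest SNDX-50469 peak had a −log10 p of 3.93 and the weakest control peak 2.68. Fold enrichment is the signal of a peak over the background of its own library, so it was used within a list to order peaks and was not compared between lists.

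The domains had a median width of 3141 bp, from 2000 to 25789 bp, and a median fold enrichment of 4.69, from 3.61 to 30.5. In 213 of them the −log10 q was 5 or more. At the edge of the rule, the domain nearest to BTBD3 was 2000 bp wide with a fold of 4.64, while the peak nearest to PRUNE2 was 1999 bp wide with a fold of 4.05 and was left out. A domain near UBAC2 stood 2505 bp from the nearest coding 5′ end, and a peak near MED29 at 2464 bp was left out.

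Because the rule used only 1 annotated 5′ end per coding gene, some domains lay over another start of transcription. The 5′ ends of long non-coding RNAs (lncRNAs) or further 5′ ends of coding genes, as given by RefSeq for GRCh38.p14, lay inside 182 of the 1054 domains (17.3%, 15.1 to 19.7%), 110 with an lncRNA start and 89 with a coding start. The share was 1.99% over all 24270 distal SNDX-50469 peaks and 7.12% over 16120 control peaks of the same width and distance. Among these control peaks it was 25.6% for the 809 that held a domain, whose median width was 11137 bp. It was 11.9% for those with shorter SNDX-50469 peaks only and 4.08% for those with no SNDX-50469 peak. Narrow peaks are unlikely to reach a start, so the counts were also taken per length. There were 43.3 domains with a start per Mb of domain, 37.6 narrow distal SNDX-50469 peaks with a start per Mb of such peaks, and 13.9 per Mb for the control peaks. Control peaks that held a domain had 18.3 per Mb. Domains with a start had a median fold of 5.14 and those without one 4.62, and 7 of the 20 domains of highest fold held a start. The sequences below show 5 of these starts, chosen for well-known transcripts and for their contrast in base composition, each with 250 bases before the 5′ end and, for the non-coding transcripts, 50 bases after it. Capitals mark matches to the motifs listed in the next paragraph, and a sequence without capitals has none.
MIR17HG, chr13:91347437-91347736, plus strand: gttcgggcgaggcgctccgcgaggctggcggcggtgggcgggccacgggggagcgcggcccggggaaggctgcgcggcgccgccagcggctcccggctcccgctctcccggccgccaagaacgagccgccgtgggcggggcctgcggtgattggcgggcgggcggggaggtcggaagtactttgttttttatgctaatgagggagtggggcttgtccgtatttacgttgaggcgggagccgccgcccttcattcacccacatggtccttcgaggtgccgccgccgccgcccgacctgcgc
MALAT1, chr11:65497488-65497787, plus strand: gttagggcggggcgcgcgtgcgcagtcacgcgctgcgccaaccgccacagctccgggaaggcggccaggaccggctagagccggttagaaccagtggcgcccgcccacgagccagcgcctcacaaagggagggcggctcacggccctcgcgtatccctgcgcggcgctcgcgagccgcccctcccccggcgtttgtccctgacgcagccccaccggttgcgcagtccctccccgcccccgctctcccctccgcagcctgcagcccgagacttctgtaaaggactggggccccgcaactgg
DLEU2, chr13:50125492-50125791, minus strand: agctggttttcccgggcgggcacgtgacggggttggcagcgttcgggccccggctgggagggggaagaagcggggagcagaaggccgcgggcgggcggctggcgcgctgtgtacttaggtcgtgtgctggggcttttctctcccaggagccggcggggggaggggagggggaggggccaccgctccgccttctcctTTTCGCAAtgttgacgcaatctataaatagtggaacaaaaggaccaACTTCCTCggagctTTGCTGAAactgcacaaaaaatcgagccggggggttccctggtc
CYP1B1-AS1, chr2:38130855-38131154, plus strand: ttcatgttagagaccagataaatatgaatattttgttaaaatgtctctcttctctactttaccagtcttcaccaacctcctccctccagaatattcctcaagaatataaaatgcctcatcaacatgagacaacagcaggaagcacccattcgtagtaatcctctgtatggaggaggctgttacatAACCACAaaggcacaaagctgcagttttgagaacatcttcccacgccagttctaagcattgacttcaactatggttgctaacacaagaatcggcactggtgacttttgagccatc
RUNX1, chr21:34888700-34888949, minus strand: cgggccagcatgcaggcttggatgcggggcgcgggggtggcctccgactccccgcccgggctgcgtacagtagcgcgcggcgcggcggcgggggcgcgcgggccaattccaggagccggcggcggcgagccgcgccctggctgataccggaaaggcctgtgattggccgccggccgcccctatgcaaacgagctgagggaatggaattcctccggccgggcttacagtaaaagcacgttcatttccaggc

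MIR17HG, the host of the miR-17-92 cluster, starts in a domain of 2786 bp with a fold of 7.52 upstream of GPC5. MALAT1, an abundant nuclear lncRNA, starts in a domain of 5259 bp with a fold of 9.86 between protein-coding genes. DLEU2, the host of miR-15a and miR-16-1, starts in a domain of 4738 bp with a fold of 8.28, and a further domain of 5008 bp nearby holds starts of both DLEU1 and DLEU2. CYP1B1-AS1 starts in a domain of 4852 bp with a fold of 7.59. The RUNX1 window is the proximal promoter inside the gene, under a domain of 8206 bp with a fold of 5.41. The MIR17HG and MALAT1 windows hold 42 and 37 CpG dinucleotides, while the CYP1B1-AS1 window holds 3 and has a GC content of 41.3%. Over the 269 windows inside domains, the median GC content was 65.3% for coding genes and 57.7% for lncRNAs, compared with 62.3% and 50% over all windows of the promoter table.

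Motif letters were searched on both strands of those 269 windows and of 34796 distinct windows in all. The letters GAGGAAGT, bound by PU.1 and other ETS factors, were in 4.09% of the windows inside domains (2.3 to 7.17%) and in 2.6% of all windows. For the C/EBP letters TTGCNNAA the shares were 13.8% (10.1 to 18.4%) and 10.5%. The MYB letters AACTGCC were in 5.95% of windows inside domains (3.69 to 9.44%) and 3.98% of all. The RUNX letters TGTGGTT were in 4.83% (2.85 to 8.09%) and 4.28%. The remaining motifs were those of AP-1 with the letters TGANTCA (8.92% and 7.73%), of the GATA family with the letters AGATAAG (2.6% and 2.69%), of HOXA9 together with MEIS1 with the letters TGATTTAT (0.372% and 0.848%), and of the IRF family with the letters GAAANNGAA (7.06% and 8.11%). For all 8 motifs the share over all windows lay inside the interval of the windows in domains. The C/EBP and the PU.1 or ETS letters both occur in the DLEU2 window and the RUNX letters in the CYP1B1-AS1 window. A match of letters is a description and not a bound site.

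Of the 1054 domains, 10 (0.949%) contained miRNA hairpins, and some of these also held a start. They held 12 of the 1461 miRNA hairpins on the same chromosomes. The 18 mature products of the 12 hairpins all have different seeds. The mature sequences of the most familiar ones are given in RNA letters with the seed (bases 2 to 8) in capitals.
hsa-let-7i-5p, chr12:62603691-62603712, plus strand: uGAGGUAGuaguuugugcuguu
hsa-miR-23a-3p, chr19:13836595-13836615, minus strand: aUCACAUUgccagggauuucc
hsa-miR-27a-3p, chr19:13836447-13836467, minus strand: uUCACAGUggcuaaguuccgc
hsa-miR-24-3p, chr19:13836289-13836310, minus strand: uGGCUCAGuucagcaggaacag

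The hairpins of miR-23a, miR-27a and miR-24-2 lie side by side in 1 domain of 4895 bp with a fold of 7.09, between genes and 351 bp beyond the 3′ end of ZSWIM4. The control peak over this cluster was 29099 bp wide, and SNDX-50469 peaks covered 59.8% of it. Let-7i lies in a domain of 2684 bp with a fold of 6.94, which also holds the start of its host transcript MIRLET7IHG and took up 91.6% of a control peak of 2930 bp. PURPL, an lncRNA regulated by p53, starts in a domain of 4182 bp with a fold of 7.07 upstream of CDH9.

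The first question was whether these domains were already acetylated without the inhibitor. Of the 1054 domains, 1053 (99.9%, 99.5 to 100%) shared at least 1 bp with a control peak, compared with 67.2% of all SNDX-50469 peaks on the same chromosomes. Control peaks covered 992 domains (94.1%) in full and 99.6% of the summed length. Among narrow distal SNDX-50469 peaks 57.7% shared bases with a control peak, while all 965 equally wide SNDX-50469 peaks near coding 5′ ends did. The exception was a domain of 2412 bp with a fold of 4.23, 478 bp beyond the 3′ end of the homeobox gene OTX1 (chr2:63058309-63060720), which overlapped no control peak. The next least covered domains were inside RAB11FIP3 (33.8% covered), downstream of KIAA2013 (61.9%), inside KLHL8 (69.4%) and upstream of CBLB (77.9%).

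The control peaks over these domains were among the strongest of their list. Counted once per domain, their median rank by −log10 p was 1889 of 245875, and for 1030 of the 1053 domains (97.8%) the control peak ranked within the top 5%. Over the 924 distinct control peaks the median rank was 2086.5. It was 24556.5 over the 16120 control peaks of the same width and distance as the domains. The control peaks over the domains were also wider than the domains, with a median of 13095 bp over the 1053 domains. A domain took up a median of 27.5% of its control peak. Counting every SNDX-50469 peak within it, the median covered share of the control peak was 43.6%. In all, 924 control peaks held the domains and 96 of them held 2 or more. SNDX-50469 peaks covered at least 90% of 33 of these control peaks and less than 25% of 132. In 14 cases the domain was wider than its control peak. The domain's midpoint was nearer to the nearest coding 5′ end than the midpoint of its control peak in 443 of 910 cases and farther in 466.

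**Figure D1:**
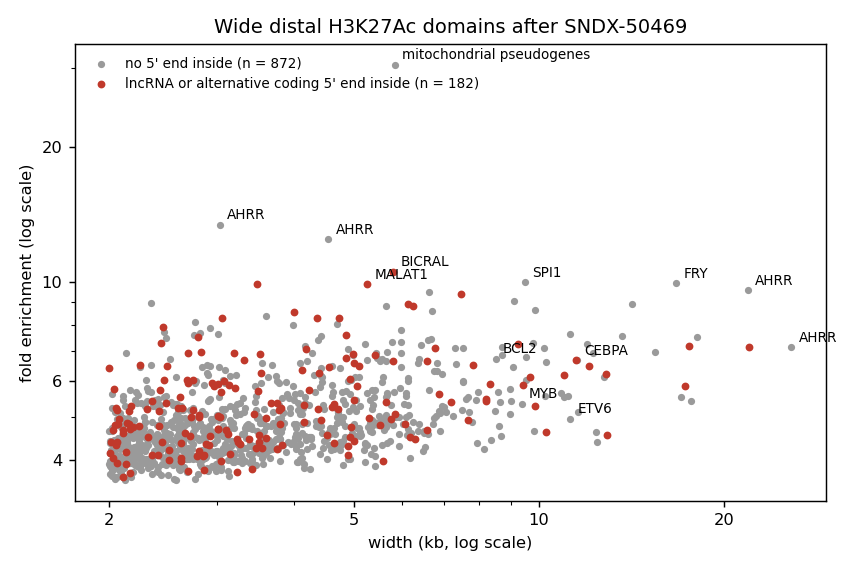
Each point is 1 of the 1054 wide distal SNDX-50469 domains, with its width in kb on the x axis and its fold enrichment over background on the y axis, both on log scales. Red points hold the 5′ end of an lncRNA or a further 5′ end of a coding gene (182), grey points hold none (872), and the named points include 4 of the 7 domains in AHRR, the domain at 30.5 over mitochondrial pseudogenes and the SPI1 domain at 9.98.

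The domain of highest fold, 30.5 over 5833 bp (chr1:629088-634920), lies inside LOC102724250 over 7 pseudogene copies of mitochondrial genes, including MTND1P23 and MTCO1P12, and had the same boundaries in the control list. These copies are nearly identical to mitochondrial DNA, so the origin of the reads there is uncertain. AHRR, the repressor of the aryl hydrocarbon receptor, held 7 domains inside its gene body (chr5:321714-438285) that summed to 74548 bp and ranged from 4.19 to 13.4 in fold. Of these, AHRR#1 in order along the gene was 3025 bp wide and had the highest fold, AHRR#6 was 4544 bp wide with a fold of 12.46 and its control peak ranked 2 in the control list, and AHRR#7 was the widest domain in the set at 25789 bp. SNDX-50469 peaks covered 88.5% to 99.4% of the control peaks over the AHRR domains, so the peaks of both lists lay in nearly the same stretches of the gene. The next highest folds were 10.5 inside BICRAL, which encodes a SWI/SNF complex subunit, 9.98 upstream of SPI1, 9.91 inside FRY, 9.88 inside ZSCAN31 and 9.86 at MALAT1. Besides AHRR, the widest domains included 22003 bp inside LOC124905135, 18120 bp between genes nearest to LOC124906010, 17711 bp upstream of ACAD9, 17541 bp downstream of TOMM20 and 16725 bp inside FRY.

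Some domains filled their control peak and others were a small part of it. The FRY domain took up 99.2% of a control peak of 16865 bp, the domain of 17074 bp upstream of RNF24 took up 95.7%, and the one upstream of ACAD9 took up 87.7%. At the other end, a domain of 2256 bp inside TNFAIP8, a regulator of apoptosis, was 3.49% of a control peak of 64582 bp, and a domain of 3057 bp that lay 68085 bp beyond the 3′ end of HS2ST1 was 3.97% of one of 77089 bp. XCR1, the receptor of the chemokine XCL1, had a domain of 6641 bp with a fold of 9.50 at 8354 bp upstream, and SNDX-50469 peaks covered 46.9% of its control peak. Among domains over a further coding start were those in HMGB1 (fold 8.57), TBL1XR1 (8.30) and HNRNPH1 (7.91), and LINC01089 started in a domain of 6128 bp with a fold of 8.90 inside SETD1B, a histone methyltransferase gene. A domain of 4361 bp with a fold of 8.32 lay 7569 bp upstream of JUND, a member of the AP-1 family. Over the 1054 domains, wider ones tended to have a higher fold (Spearman's rho 0.457), with both measures taken from the same peaks of 1 library.

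Place was given relative to the bodies of protein-coding genes, since exons and introns were not separated in the hg38 annotation used here. A whole gene body enclosed 524 domains (49.7%, 46.7 to 52.7%), 45 were partly inside and 485 (46.0%, 43.0 to 49.0%) were intergenic, of which 264 were upstream and 217 downstream of the nearest gene. The median distance to the nearest coding 5′ end was 36923 bp, with 183 domains within 10 kb and 252 beyond 100 kb. Joined at the gap commonly used to stitch enhancers, they formed 886 separate regions. The domains were assigned to 771 genes, 4.19% of the 18408 protein-coding genes on these chromosomes, of which 597 had 1 domain, 118 had 2 and 56 had 3 or more.

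DAD1, ETV6 and RREB1 had the most domains, 9 each. The 9 domains assigned to DAD1, which encodes a subunit of the oligosaccharyltransferase, run across the neighbouring T cell receptor alpha and delta locus, and 6 of them overlap annotated receptor segments. DAD1#8, the widest at 17332 bp with a fold of 5.86, covers TRAC and TRAJ1, and DAD1#6, with 12894 bp and a fold of 4.56, covers 9 joining segments from TRAJ53 to TRAJ61. SNDX-50469 peaks together covered 61.9% and 66.5% of the control peaks over them, which were 42221 and 46692 bp wide. In ETV6, an ETS family transcriptional repressor needed for haematopoiesis, all 9 lay inside the gene body (chr12:11649674-11895377), 8 of them within the widest control peak that held any domain, 86589 bp, of which SNDX-50469 peaks covered 63.0%. Their folds ranged from 3.72 to 5.67. RREB1, a zinc finger factor that responds to Ras signalling, had 4 domains inside and 5 upstream, with folds from 3.69 to 7.17, and JARID2, a Polycomb complex partner, had 7 with folds from 3.89 to 7.41, of which 4 lay in 1 control peak of 37467 bp, at least 319714 bp upstream. TOMM20 also had 7 domains, LY86 had 6, and ANXA2R, CD93, IRF2BP2 and VEGFA had 5 each, all of them between genes.

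**Figure D2:**
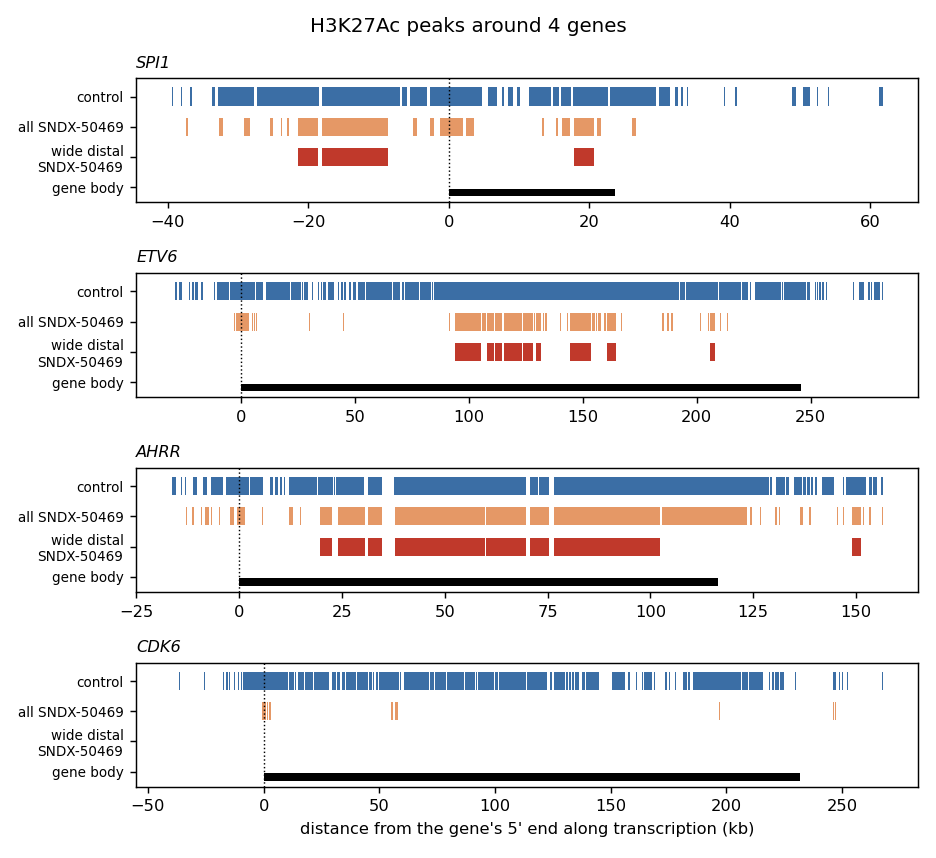
Peaks around SPI1, ETV6, AHRR and CDK6 by distance in kb from the gene's 5′ end along transcription (dotted line), with control peaks in blue, all SNDX-50469 peaks in orange, the wide distal SNDX-50469 domains in red and the gene body in black. The control row is dense over much of each gene body, with wider gaps toward the 3′ end of CDK6 and beyond the 3′ end of SPI1. The AHRR gene body carries red blocks along most of its length. ETV6 carries them in its middle, SPI1 upstream and near its 3′ end, and CDK6 has none.

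The comparison was then turned around, to ask which wide distal domains of control cells kept a wide domain with SNDX-50469. Of all 216710 control peaks on these chromosomes, 6.28% held a SNDX-50469 peak. Of the 16120 chosen by the same width and distance, 809 (5.02%, 4.69 to 5.37%) held a wide distal SNDX-50469 domain, 4832 (30.0%, 29.3 to 30.7%) held a SNDX-50469 peak of any width, and SNDX-50469 peaks covered 9.26% of their length. The any-width share depended on the rule, and was 75.8% with only control peaks at a −log10 q of 5 or more and 16.6% when 10% of the control peak had to be covered. The share with a domain rose with the width of the control peak, from 0.261% at 2 to 3 kb through 1.61%, 7.02% and 24.5% to 58.9% (53.0 to 64.6%) for the 275 control peaks of 20 kb or more. The share with a SNDX-50469 peak of any width rose from 13.7% to 95.3%, and the covered share of length from 2.61% to 24.1%. A wider control peak has more room for a domain and for a shared base, and the effect of this room was not tested. By strength, 79 of the 100 wide distal control peaks with the highest −log10 p held a domain, as did 491 of the top 1000 (49.1%, 46.0 to 52.2%) and 796 of the top 5000 (15.9%). Even in control peaks that held a domain, SNDX-50469 peaks covered 39.9% of the length, and where only shorter peaks remained they covered 11.5%.

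**Figure D3:**
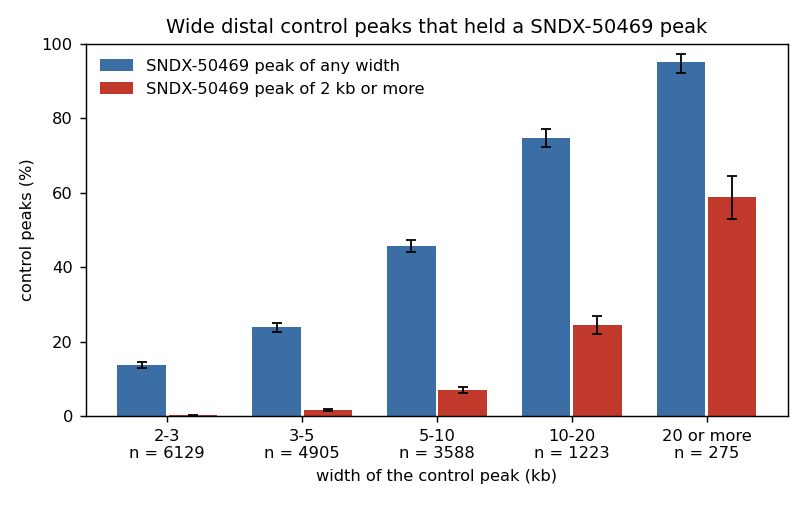
Bars give the percentage of wide distal control peaks, grouped by their width in kb, that held a SNDX-50469 peak of any width (blue) or a wide distal SNDX-50469 domain (red), with 95% Wilson intervals and the number of control peaks under each group. The red bars rise from 0.261% to 58.9% and the blue bars from 13.7% to 95.3%.

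The share with a wide domain showed no clear order by distance from genes, while the share with a SNDX-50469 peak of any width fell with it. The share of control peaks with a domain was 5.18% at up to 10 kb from a coding 5′ end, 5.24% at 10 to 50 kb, 4.70% at 50 to 100 kb and 4.80% beyond 100 kb. The share with a SNDX-50469 peak of any width was 34.0% (32.2 to 35.9%), 31.6%, 28.4% and 25.9% (24.6 to 27.3%) in the same order, and the covered length fell from 10.2% to 8.17%. The share with a domain was 4.95% for control peaks that touched a gene body and 5.11% for those between genes. Chromosomes ranged from 3.70% (2.02 to 6.68%) on chromosome 21 to 6.66% (5.04 to 8.74%) on chromosome 20. The share with a SNDX-50469 peak of any width varied more, from 22.7% on chromosome 4 to 47.0% on chromosome 19. Chromosome 6 had 42.3%, chromosome 13 had 39.7% (36.1 to 43.5%) and chromosome 20 had 35.4% (32.0 to 39.0%). The intervals of chromosomes 13 and 20 overlapped. The shares with a domain on chromosomes 19, 6 and 13 were 5.27%, 5.59% and 5.07%, below the 6.66% of chromosome 20.

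**Figure D4:**
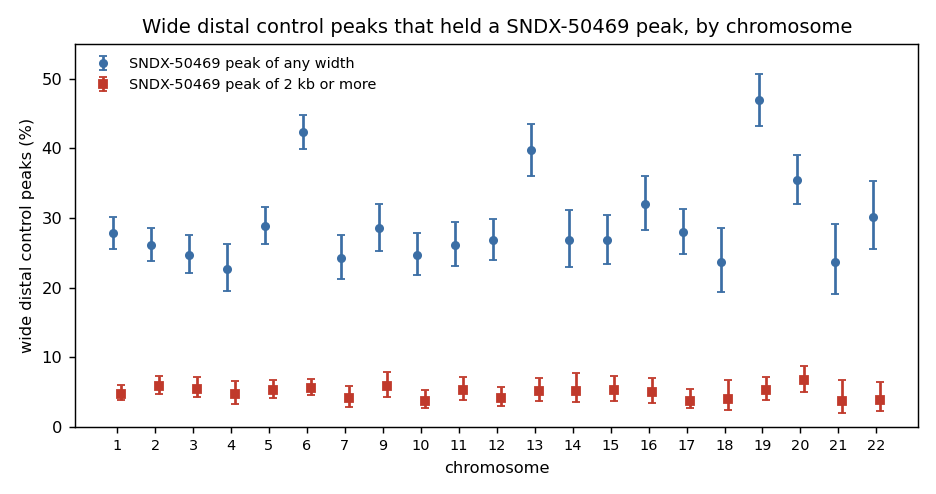
For each autosome except 8, points give the percentage of wide distal control peaks that held a SNDX-50469 peak of any width (blue circles) or a wide distal SNDX-50469 domain (red squares), with 95% Wilson intervals. Blue points are highest on chromosomes 19, 6 and 13, and the interval of chromosome 13 overlaps that of chromosome 20. The red points lie between 3.70% and 6.66%.

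Genes with defined roles were then examined as lists. A list gene was counted as having a domain when it was the overlapping or nearest coding gene, which favours long genes and genes with wide flanks, so the control peaks assigned in the same way are given beside each count. Of 19 target genes of MLL fusions and Menin, 8 had a domain (42.1%, 23.1 to 63.7%, compared with 4.19% of all genes), namely BAZ2B, BCL2, FLT3, LAMP5, MEF2C, MYB, RUNX2 and ZEB2. The same genes attract many control peaks, and of the 157 wide distal control peaks assigned to the list 10 (6.37%, 3.50 to 11.3%) held a domain, compared with 5.02% of all such control peaks. Among control peaks of 10 kb or more the share was 32.0% for the list, 8 of 25, and 30.8% for all genes.

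The counts for single genes of this list are small and stand against the 5.02% of all genes, so 0 or 1 domain at a gene is close to the background. BCL2, the apoptosis inhibitor, had the domain of highest fold, 6.73 over 8513 bp, between genes 20110 bp beyond its 3′ end, and its control peak ranked 177. BAZ2B, a bromodomain protein, had a domain of 4934 bp with a fold of 6.08 inside the gene, over a further start of BAZ2B, the only one among its 14 wide distal control peaks. MYB had 3 domains, 1 inside the gene of 9386 bp with a fold of 5.35, 1 upstream of 2211 bp and 1 downstream of 3635 bp, and 6 of its 8 wide distal control peaks held a SNDX-50469 peak. At the low end, 0 of the 24 wide distal control peaks of CDK6, 0 of 10 at MEIS1, 0 of 10 at PBX3, 0 of 18 at JMJD1C and 0 of 5 at SENP6 held a domain. SNDX-50469 peaks of any width touched 3 of 24 at CDK6, 1 of 10 at MEIS1 and 0 of 10 at PBX3, but 5 of 18 at JMJD1C and 3 of 5 at SENP6, compared with 30.0% of all such control peaks. The widest control peaks of CDK6, MEIS1 and PBX3 measured 11623, 15094 and 16436 bp. MEF2C and RUNX2 each had 1 domain among 12 wide distal control peaks. FLT3, the receptor tyrosine kinase, had 1 domain of 2626 bp inside the gene, and 6 of its 12 control peaks held a SNDX-50469 peak.

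Blood transcription factors had the most domains of any list, 37 at 16 of 40 genes (40.0%, 26.3 to 55.4%, compared with 4.19% of all genes). Of the 292 wide distal control peaks assigned to them 23 (7.88%, 5.31 to 11.5%) held a domain, and among those of 10 kb or more 20 of 50 did (40.0%, 27.6 to 53.8%), an interval that included the 30.8% of all genes. SPI1 had a domain of 9490 bp with a fold of 9.98 (chr11:47387143-47396632), 8596 bp upstream of its 5′ end, which took up 85.2% of a control peak that ranked 11 in the control list. A second SPI1 domain, 2773 bp with a fold of 6.0, lay inside the gene. GFI1, a repressor that restrains myeloid progenitors, had a domain of 6688 bp with a fold of 7.44 beyond its 3′ end. IRF8 had 4 domains downstream, of which IRF8#4, 77466 bp from its 5′ end, was the strongest with 9253 bp, a fold of 7.28 and 76.0% of the control peak covered. CEBPA had 2 domains downstream, of 11539 bp (fold 6.68) and 5381 bp (fold 5.32), in 1 control peak of 57889 bp that ranked 89. RUNX1 had 3 domains inside the gene, but only 9 of its 48 wide distal control peaks held any SNDX-50469 peak. ELF1 had 4, all inside the gene. At CEBPB, 0 of 10 wide distal control peaks held a SNDX-50469 peak, compared with 30.0% over all genes.

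Of 39 myeloid differentiation and surface genes 6 had a domain (15.4%, 7.25 to 29.7%, compared with 4.19% of all genes). Among them was CD93, a receptor of monocytes and endothelium. CD93 had 5 domains, all upstream, of which the strongest was 10992 bp wide with a fold of 6.19, and SNDX-50469 peaks covered 72.9% of the 44038 bp control peak that held it. AZU1, which encodes the granule protein azurocidin, had a domain of 4273 bp with a fold of 6.92 beyond its 3′ end. The domain took up 20.9% of a control peak of 20460 bp that reached a coding 5′ end. All SNDX-50469 peaks together covered 94.2% of that control peak. TLR4, the lipopolysaccharide receptor, had 2 domains of 3778 and 3555 bp, and LYZ had 1 of 2219 bp. At ITGAM, the CD11b integrin, 0 of 2 wide distal control peaks held a SNDX-50469 peak, too few to set against the 30.0% over all genes. Over this whole list 24 of 75 did (32.0%, 22.5 to 43.2%).

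For chromatin regulators, 6 of 35 genes had a domain (17.1%, 8.10 to 32.7%, compared with 4.19% of all genes). These had 14 domains, of which 7 were at JARID2 and 3 at AFF1, a partner gene of MLL fusions. JARID2#4 was the strongest, with 6607 bp and a fold of 7.41. Among signalling and immediate early genes 8 of 39 had one (20.5%, 10.8 to 35.5%). CISH, an inhibitor of cytokine signalling, had a domain of 8588 bp with a fold of 5.67 that reached into its 3′ part, VAV1 had 1 of 2297 bp with a fold of 6.03 inside the gene, and CXCR4, the chemokine receptor, had 4 upstream with folds from 4.04 to 4.90. Of cell cycle and apoptosis genes 4 of 23 had a domain (17.4%, 6.98 to 37.1%). The domains at BTG1 (fold 5.24) and BCL2A1 (fold 5.11) both lay between genes. The shares of their wide distal control peaks that held a domain were 6.55%, 4.44% and 8.89% for these 3 lists and 8.0% for the myeloid differentiation list, and the intervals of these lists and of the MLL fusion list included the 5.02% of all genes. The interval of the blood transcription factors, 5.31 to 11.5%, lay above that value by a small margin. Their share with a SNDX-50469 peak of any width, 28.1% (23.2 to 33.5%), was near the 30.0% of all genes, and for control peaks under 10 kb 3 of 242 held a domain (1.24%, 0.422 to 3.58%), compared with 2.37% for all genes.

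**Figure D5:**
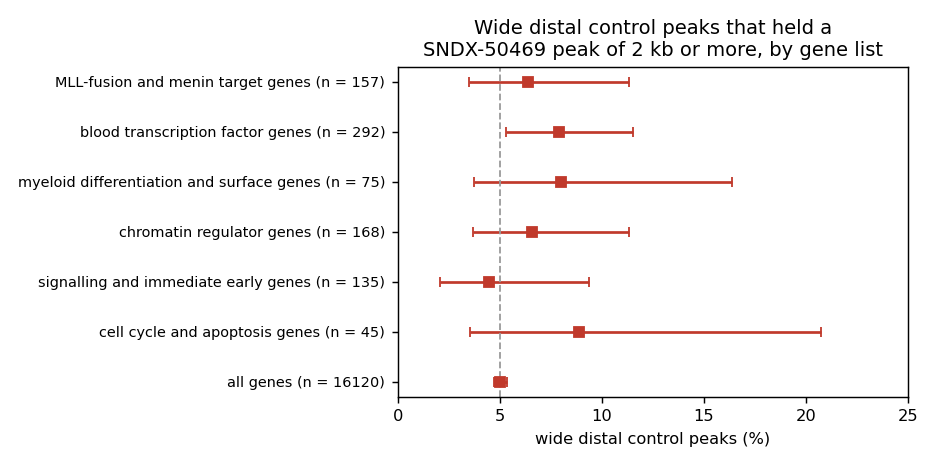
For each gene list, the square gives the percentage of its wide distal control peaks that held a wide distal SNDX-50469 domain, with the 95% Wilson interval and the number of control peaks in brackets. The dashed line is the 5.02% of all genes, and the squares lie from 4.44% for signalling genes to 8.89% for cell cycle genes.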

How the data were processed

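MOLM13 cells were profiled by H3K27Ac ChIPmentation in 1 control and 1 SNDX-50469 library. The 2 input libraries were not analysed here. The submitters' processing notes name Trim Galore 0.6.5, Bowtie2 2.3.4.2, Picard 2.9.0, MACS2 2.1.2 and GRCh38, while the methods name TopHat2 for mapping. Options and use of the input are not given in the sources used here. The authors deposited 1 broad peak list per library. It holds a fold ratio over background, the deposited −log10 p and −log10 q, and the authors' score, which was not used. Replicates were not pooled.

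Python 3.11.15 with numpy 2.4.6 and pandas 2.3.3 was used, after the overlap and distance steps were tested on simulated data. Gene bodies and 5′ ends came from RefSeq GRCh38.p14. Strand came from its promoter table for 15842 coding genes and from GENCODE for 3829, and 381 without a strand counted with both ends. Peaks ended beyond the GRCh37 length on 7 chromosomes, so the lists are not on that build. A domain was assigned to the coding gene it overlapped most, otherwise to the nearest. Overlap needed 1 bp. Domains and lists were chosen with earlier results of these data known. Named were domains by highest fold, greatest width, list membership (the 2 of highest fold per list), genes with most domains, and lowest control coverage. Others, such as the genes in the list accounts and starts of lncRNAs and miRNAs, were named after their values were seen. Peak sequences and GC content of domains were not analysed here, so promoter windows and miRNAs are shown in their place. Results for a few genes are not reported here.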

Additional observations from a re-analysis of the deposited data

How the results depend on the processing

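The share of domains with a control peak ranged from 99.8% to 100% over the 9 alternatives tried, and the covered share of their length from 99.4% to 99.7% over 8. A minimum width of 3000 bp kept 575 domains, of which 100% had a control peak, and raised the covered share of the control peaks to 49.6%. With only SNDX-50469 peaks at a −log10 q of 5 or more, 213 domains remained, 100% had a control peak and 44.6% were inside gene bodies. With the 5′ ends of all annotated genes that share was 54.6%. The share of wide distal control peaks with a SNDX-50469 peak was 24.1% at a width of 1500 bp, 40.0% at 3000 bp, 75.8% with only control peaks at a −log10 q of 5 or more, and 16.6% when 10% of the control peak had to be covered. The causes were not tested. The other 30 values stayed within the Wilson interval of the reported value, or within 1.5 times for counts. For the 2 covered shares of length, which are not counts of domains, that interval is only a yardstick and does not measure their spread. The 30 include the values without the mitochondrial pseudogene domain, an alternative chosen after seeing the data. GC content was not run. The unknown depth limits which weak or narrow domains could be called. No paired analysis was possible because there is only 1 H3K27Ac library in either group.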
